A study of Homo sapiens with 7 samples.

Results

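The cyclin-dependent kinase (CDK) inhibitors analysed here were the 7 genes of the INK4 family (CDKN2A, CDKN2B, CDKN2C and CDKN2D) and the CIP/KIP family (CDKN1A, CDKN1B and CDKN1C). They were chosen by name from the 22670 genes of the tables, and each name had 1 entry. RNA-seq had been done on SEES-3 hESCs, a human embryonic stem cell line, carrying a doxycycline (Dox)-inducible JMJD3c, the catalytic C-terminal part of the histone demethylase JMJD3 that removes methyl groups from lysine 27 of histone H3. These JMJD3c-hESCs were collected before Dox (Day 0) and on each of Days 1 to 4 of Dox treatment (1 µg/ml). JMJD3c mut-hESCs, which carry an inducible form without catalytic activity, were collected without Dox and at Day 4 of Dox at the same dose. Both were stable clones with the Tet transactivator, and each of the 7 conditions was 1 library. No difference below therefore has a replicate check, no p-value is given, and line, clone and construct cannot be told apart.

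INK4 proteins bind CDK4 and CDK6 and keep them from pairing with D-type cyclins, which holds the retinoblastoma protein in its growth-restraining form. CIP/KIP proteins bind a wider range of cyclin-CDK complexes, those of CDK2 above all. The CDKN2A and CDKN2B loci are textbook targets of Polycomb repression through methylated lysine 27 of histone H3, CDKN1A is known to respond to DNA damage and other stress, and CDKN1C is an imprinted gene. Pluripotent cells divide rapidly with a short G1 phase, in which INK4 levels are usually low.

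Levels are given as FPKM, fragments normalised to transcript length and to mapped reads, with the 95% interval that Cufflinks gave for each library. Such an interval covers the uncertainty of a single library's estimate and says nothing of how cultures vary. Because FPKM is per length, levels were also compared between genes. From the spacing of low FPKM values, the libraries held an estimated 1760000 reads at Day 0, the shallowest, to 3630000 in the mutant line without Dox. KDM6B, the gene from which JMJD3c was taken, was at 3.45 FPKM at Day 0 and 282 FPKM at Day 4, and at 2.40 and 454 FPKM in the mutant line without and with Dox. All 7 hESC markers examined (POU5F1, NANOG, SOX2, LIN28A, DNMT3B, TDGF1 and L1TD1) stood at 65.9 FPKM or more in every library. All 7 were nevertheless lower at Day 4 than at Day 0, with a median log2 ratio of -0.44, and 2 were called downregulated with intervals apart, SOX2 from 136 to 65.9 FPKM and DNMT3B from 404 to 191 FPKM. The 7 were also lower with Dox in the mutant line, with a median of -0.19 and 0 called. Intervals were apart there for all markers but NANOG, and between Day 4 and Day 0 for all but NANOG and L1TD1. The part of this marker shift in the CDK inhibitor values was not tested. Of the 7 markers of other cells, PTPRC and PECAM1 were listed at 0 throughout, COL3A1 and CD34 were at 0 in 6 of 7 libraries each, and COL1A1, COL1A2 and THY1, the last of which hESCs also express, were detected in all.

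Sequence context is shown for a promoter of each of 2 neighbouring genes on chromosome 9, CDKN2A and CDKN2B, which had their highest FPKM at Day 4. CDKN2A occupies chr9:21967751-21995300 and CDKN2B chr9:22002902-22009362 on hg19, both on the minus strand. CDKN2A has 1 start for p16INK4a and another, farther upstream, for p14ARF, which shares coding exons in a different reading frame. The p14ARF start lies between the p16INK4a start and CDKN2B, so the printed windows are not adjacent promoters. The windows are the 250 bases before the p16INK4a start (chr9:21974857-21975106, minus strand, GRCh37, read from the genome) and before the CDKN2B start (chr9:22009305-22009554, minus strand, from RefSeq on GRCh38.p14 and found unaltered at this hg19 position). They are printed 5′ to 3′ with each CG dinucleotide in capitals.
p16INK4a: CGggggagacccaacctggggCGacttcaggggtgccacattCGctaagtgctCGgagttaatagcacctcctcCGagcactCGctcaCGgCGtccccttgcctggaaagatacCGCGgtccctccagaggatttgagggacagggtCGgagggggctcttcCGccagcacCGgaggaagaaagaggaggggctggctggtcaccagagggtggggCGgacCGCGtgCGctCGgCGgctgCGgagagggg
CDKN2B: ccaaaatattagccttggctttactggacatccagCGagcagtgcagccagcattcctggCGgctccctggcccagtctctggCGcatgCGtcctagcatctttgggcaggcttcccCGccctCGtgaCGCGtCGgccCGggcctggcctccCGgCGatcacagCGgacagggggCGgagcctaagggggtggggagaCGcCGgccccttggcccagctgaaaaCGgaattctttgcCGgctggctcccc
The p16INK4a window held 20 CG dinucleotides and the CDKN2B window held 18. Of 35116 RefSeq promoter windows of the same length, 32.4% held at least as many as the first and 36.8% at least as many as the second. Across the other starts that could be matched, the count was 27 for the p14ARF start, 24 for the farther upstream CDKN2A start that RefSeq lists, 27 for CDKN1A, 27 for CDKN1B, 33 for CDKN2D and 7 for CDKN2C. The CDKN2C window lies before the start of a transcript other than the one annotated as its main transcript. In the CDKN2D window, 80 of the 250 bases lie in annotated exons. The GC box, GGGCGG or CCGCCC on either strand, occurred 1 time in the p16INK4a window, 2 times in the CDKN2B window and 4 times in that of CDKN1A, and 42.6% of all windows held at least 1. These matches are a description of letters and not of bound factors.

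**Figure D1:**
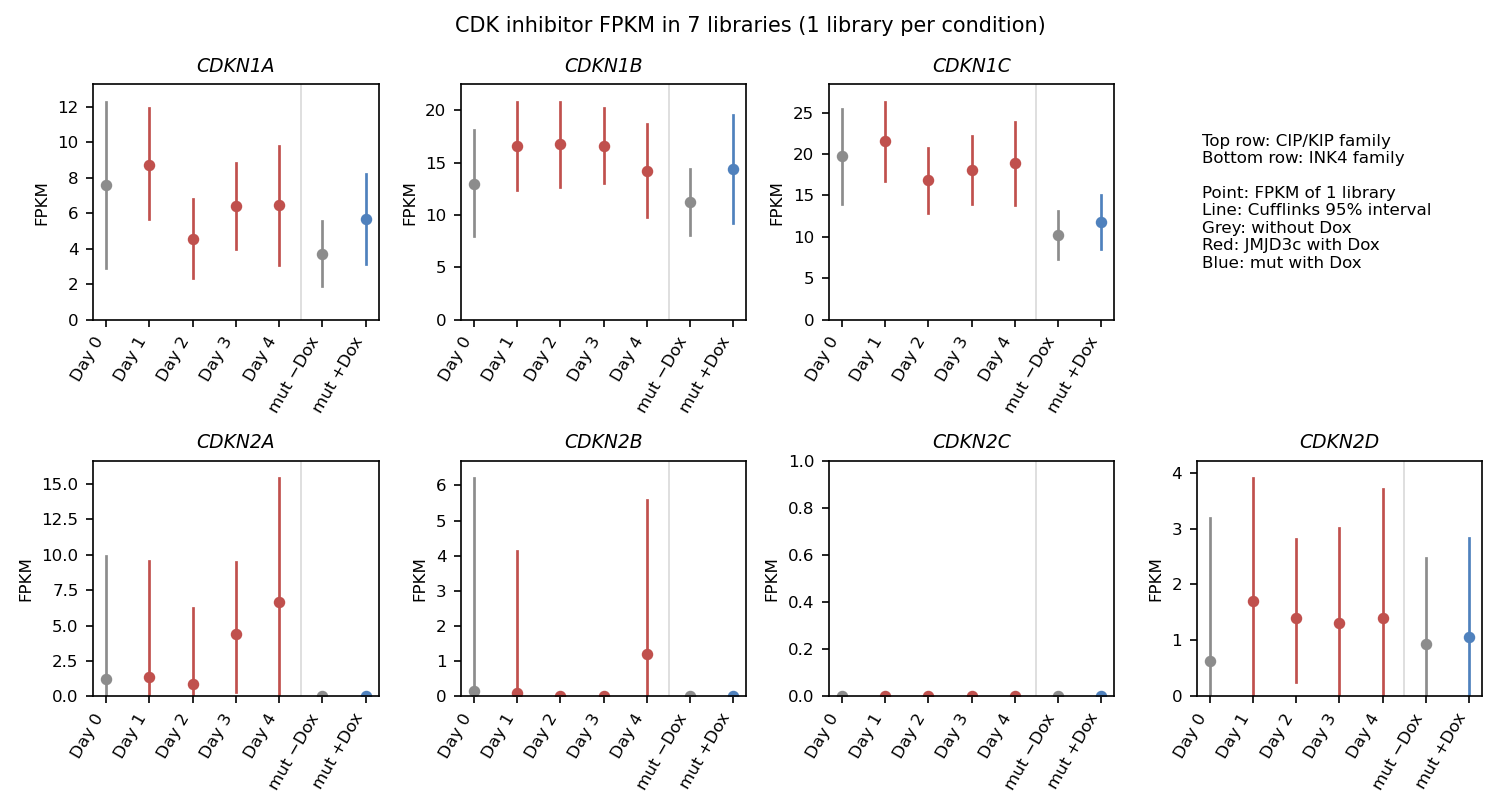
FPKM (y axis, own scale for each gene) of the 7 CDK inhibitor genes in each library (x axis, 1 library per condition), with the CIP/KIP genes above and the INK4 genes below. Points are single libraries and lines are Cufflinks 95% intervals. CDKN2A has its highest points at Days 3 and 4 (4.42 and 6.63 FPKM), and CDKN1C is lower in both mutant-line libraries (10.2 and 11.8 FPKM) than in any JMJD3c library.

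Among the INK4 genes, CDKN2A, which encodes p16INK4a and p14ARF, was the 1 member that met the study's call of upregulation in JMJD3c-hESCs. Its FPKM was 1.21 (interval 0 to 9.91) at Day 0 followed by 1.38 (0 to 9.55), 0.905 (0 to 6.23), 4.42 (0.286 to 9.51) and 6.63 (0 to 15.4). It was listed at 0 in both mutant-line libraries, where 3 reads would have given 1.06 FPKM without Dox and 1.22 FPKM with Dox. Days 3 and 4 thus stood above the other 5 libraries, while every pair of intervals among the JMJD3c libraries overlapped. The ratio to Day 0 was 3.64 at Day 3 and 5.47 at Day 4, the latter a log2 ratio of 1.79 after adding 1 FPKM to both values. Upregulation means here that the treated library exceeds both 4 FPKM and 2 times the untreated value, and downregulation that the untreated library exceeds 4 FPKM and the ratio is under 0.5. By it, 1 of the 7 members was upregulated and 0 were downregulated at Day 4, against 5.87% and 7.56% of the 10247 genes with over 4 FPKM in either library. At Day 3 the counts were the same, 1 and 0, against 4.73% and 4.48% of genes. On Day 1, 0 members were called in either direction, against 3.48% and 3.27% of genes, and on Day 2 also 0, against 3.9% and 4.24%. Where the intervals of Day 4 and Day 0 also had to be apart, 0 members were upregulated, against 2.52% of genes. The FPKM at Day 4 corresponded to about 12 reads and that at Day 0 to about 2, and the exact counting interval of the Day 4 to Day 0 ratio from those rounded reads ran from 0.975 to 40.3. It rests on the depth estimate and on the rounding, the unrounded reads being 12.4 at Day 4 and 1.66 at Day 0. At 2 times that depth, a setting chosen after seeing the data, the rounded reads would be 25 and 3 and the interval 1.86 to 31.5. The gene-level value does not separate the p16INK4a and p14ARF transcripts, of which the annotation lists several from each start.

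CDKN2B, which encodes p15INK4b, lies next to CDKN2A and was at 0.152 FPKM (0 to 6.20) before Dox, 0.101 (0 to 4.14) on Day 1, 0 on Days 2 and 3 and 1.20 (0 to 5.59) on Day 4, and at 0 in both mutant-line libraries. The Day 4 library was the highest, but no library reached the 4 FPKM that the call requires. This came to about 1 read before Dox, 1 on Day 1 and 11 on Day 4, and the exact counting interval of the Day 4 to Day 0 ratio ran from 1.17 to 346, whereas the Cufflinks intervals of the same pair overlapped.

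CDKN2D, which encodes p19INK4d, was at 0.636 FPKM (0 to 3.18) at Day 0 and then, day by day, 1.70 (0 to 3.89), 1.41 (0.255 to 2.81), 1.32 (0 to 3.02) and 1.39 (0 to 3.71). In the mutant line it was at 0.927 (0 to 2.47) without Dox and 1.06 (0 to 2.82) with Dox. Day 0 was the lowest of the 7 libraries, and its depth-scaled values were whole multiples of the Day 0 value to within 0.15. By these steps the ratio of 2.19 at Day 4 rested on 1 read at Day 0 and 3 at Day 4, with a counting interval of 0.176 to 115. CDKN2C, which encodes p18INK4c, was listed at 0 with an interval of 0 to 0 in all 7 libraries. The same held for the FPKM of 3401 of 20187 genes on chromosomes, 16.8%. Of 87 cytosolic ribosomal protein entries, 1 (RPS4Y2) was at 0 in all 7 libraries and 5 were at 0 in at least 1 library. The CDKN2C listing is not read here as absence of the transcript, which these values neither show nor exclude.

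In the CIP/KIP family, CDKN1C, which encodes p57KIP2, had the highest FPKM of the 7 members in every JMJD3c library. It was at 19.7 FPKM (14.01 to 25.4) at Day 0 with successive daily values of 21.5 (16.8 to 26.3), 16.8 (12.9 to 20.8), 18.1 (13.98 to 22.2) and 18.9 (13.8 to 23.9). In the mutant line it was at 10.2 (7.31 to 13.1) without Dox and 11.8 (8.53 to 15.1) with Dox. The difference lay between the lines and not along the Dox time course: the ratio of Day 4 to Day 0 was 0.957, and that of the untreated mutant line to Day 0 was 0.518, with intervals apart. Among the 10051 genes with over 4 FPKM in either untreated library, 6.93% were lower in the mutant line with intervals apart. Of the 21 pairs of libraries, 5 had CDKN1C intervals apart, all of them a JMJD3c library against a mutant-line one. Day 4 and the mutant line with Dox were not among these pairs, and their intervals overlapped. All 5 JMJD3c libraries were above both mutant-line libraries, an order shared with 15.6% of 10878 genes. The summed FPKM of the markers of other cells, THY1 left out, lay between 30.0 and 36.5 in the JMJD3c libraries and at 16.7 and 20.1 in the mutant line without and with Dox. With THY1 included, the sums ran from 120 (Day 1) to 166 (Day 3) and were 92.8 and 130 in the mutant line. The full sum of the mutant line with Dox thus lay within the range of the JMJD3c libraries. COL1A1 was called lower in the untreated mutant line (4.18 FPKM) than at Day 0 (11.3 FPKM), with overlapping intervals. In bulk RNA, fewer cells of a type and less RNA per cell cannot be told apart, and the part of these markers in the CDKN1C difference was not tested.

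CDKN1B, which encodes p27KIP1, was at 12.9 FPKM (8.01 to 18.1) at Day 0 and, through Days 1 to 4 of Dox, 16.6 (12.4 to 20.8), 16.8 (12.7 to 20.8), 16.6 (13.02 to 20.2) and 14.2 (9.86 to 18.7). The mutant line had 11.2 (8.11 to 14.4) without Dox and 14.4 (9.27 to 19.5) with Dox. It was the member with the narrowest relative range among those above 4 FPKM, its intervals overlapped in all 21 pairs of libraries, and the ratio with Dox was 1.10 at Day 4 and 1.28 in the mutant line.

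CDKN1A, which encodes p21CIP1, was at 7.60 FPKM (2.94 to 12.3) at Day 0 followed by 8.72 (5.68 to 11.9), 4.55 (2.35 to 6.80), 6.41 (4.00 to 8.83) and 6.44 (3.11 to 9.77). The mutant line had 3.68 (1.92 to 5.55) without Dox and 5.68 (3.15 to 8.20) with Dox. Day 2 and the untreated mutant line were the lowest, and no order by day was seen. The ratio of Day 4 to Day 0 was 0.847 and that of the mutant line with to without Dox was 1.54. Between the untreated libraries the ratio was 0.485, so that 1 of the 7 members, CDKN1A, met the cutoffs for lower in the untreated mutant line than at Day 0, as did 7.01% of genes, and 0 met those for higher, as did 2.78%. The intervals of that pair overlapped. In the mutant line, Dox left 0 of the 7 members called in either direction, against 1.25% of 9736 genes called upregulated and 1.53% downregulated.

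**Figure D2:**
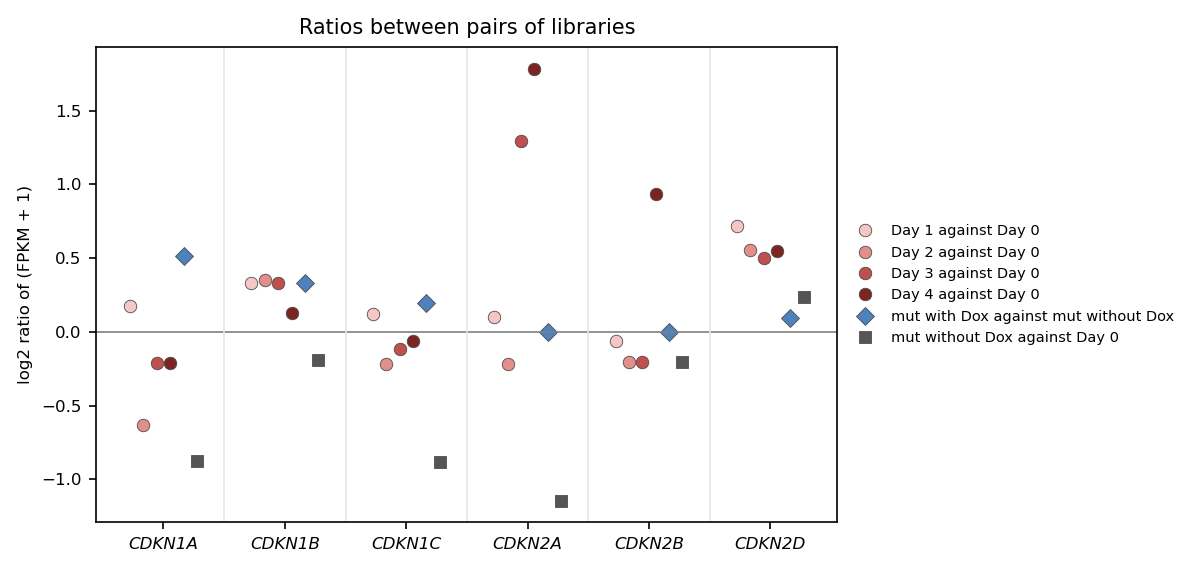
Log2 ratio of FPKM after adding 1 FPKM (y axis) for the 6 members not listed at 0 throughout (x axis). Circles are Days 1 to 4 against Day 0, from light to dark, diamonds are the mutant line with against without Dox, and squares are the untreated mutant line against Day 0. CDKN2A at Day 4 is the highest point (1.79), and for CDKN1A and CDKN1C the untreated libraries differ more (-0.88 and -0.89) than Day 4 does from Day 0 (-0.21 and -0.06).

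The summed FPKM of the CIP/KIP genes was 40.2 at Day 0 and then, day by day, 46.8, 38.1, 41.1 and 39.5, and 25.1 and 31.9 in the mutant line without and with Dox. For the INK4 genes the sums were 2.00, 3.18, 2.31, 5.73 and 9.23 over the same days, and 0.927 and 1.06 in the mutant line. The CIP/KIP share of the total was 95.3% before Dox, 87.7% on Day 3 and 81.1% on Day 4, and 96.4% and 96.8% in the mutant line. Transcripts of the CIP/KIP family therefore made up most of the measured CDK inhibitor message in every library. In the JMJD3c libraries the levels ran CDKN1C, CDKN1B and CDKN1A from high to low, except that CDKN2A came before CDKN1A at Day 4 with overlapping intervals. CDKN1B came before CDKN1C in both mutant-line libraries. The intervals of CDKN1C and CDKN1B overlapped in all 7 libraries, so these neighbours in the order were not told apart. CDKN1C stood apart from CDKN2D in 7 of 7 libraries and from CDKN2A in 6, and CDKN1B from CDKN2D in 7 and from CDKN2A in 5. CDKN1A stood apart from CDKN2D in only 3 libraries and from CDKN2A in only 2, both of the mutant line. Of these, the mutant-line intervals of CDKN2A run from 0 to 0 and carry no uncertainty, and for the same reason CDKN2B and CDKN2C were not compared.

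The median log2 ratio at Day 4 against Day 0 was 0.74 over the 4 INK4 genes, of which 1 had over 4 FPKM. It was -0.06 over the 3 CIP/KIP genes, beside -0.06 over the 10247 genes with over 4 FPKM. The INK4 median was the midpoint of CDKN2B (0.93) and CDKN2D (0.55), both under 4 FPKM and resting on few estimated reads. With a pseudocount of 4 their values were 0.33 and 0.22, so this median is not read as a shift of the family. The kinases and cyclins that these inhibitors bind gave a median of 0.06 over 11 genes, with 0 called at Day 4 or in the mutant line. Without being called, CCND1 was at 98.3 FPKM at Day 0 and 121 at Day 4, and CCNB1 at 203 and 159 FPKM, both with intervals apart. The Day 4 intervals of these cyclins were also apart from those of both mutant-line libraries. Among the kinases, CDK4, the main INK4 partner, was at 156 FPKM at Day 0 and 166 at Day 4. CDK6, the other INK4 partner, was at 17.9 and 9.42 FPKM, with intervals apart. In the mutant line CDK6 was at 11.0 FPKM without Dox and 9.40 with Dox, so Day 0 was the high library, and the Day 0 interval was also apart from that of the untreated mutant line. The 6 genes of p27 and p21 turnover, such as SKP2, the ubiquitin ligase subunit that marks p27 for degradation, had a median of -0.13 and 0 calls at Day 4. CKS1B, the cofactor of SKP2, was called lower in the untreated mutant line (186 FPKM) than at Day 0 (467 FPKM), but its FPKM lies outside its own Cufflinks interval in every library, and a near-identical second entry makes the value uncertain. The RB and E2F list held 1 upregulated gene of 8 at Day 4, against 5.87% of genes. This was RB1, the retinoblastoma gene through which INK4 inhibitors act. RB1 was at 3.63 FPKM at Day 0, 7.52, 6.56, 7.96 and 8.49 at Days 1 to 4, and 7.76 and 7.40 in the mutant line without and with Dox, so Day 0 alone was low, with its interval apart from that of Day 4.

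Of the 6 Polycomb genes that act at the CDKN2A locus, 1 was upregulated and 1 downregulated at Day 4, against 5.87% and 7.56% of genes. BMI1, a subunit of Polycomb repressive complex 1 known as a repressor of CDKN2A, was at 4.65 FPKM (0.348 to 9.38) at Day 0 with successive daily values of 8.13, 15.7, 15.1 and 34.6 (24.6 to 44.6), and at 3.27 and 2.96 in the mutant line. Its Day 4 ratio was 7.45 with intervals apart. CBX7, which reads methylated lysine 27, was at 7.69 FPKM (3.04 to 12.9) at Day 0, 3.87, 2.13, 3.40 and 1.53 (0.317 to 5.62) at Days 1 to 4, and 1.83 and 1.69 in the mutant line. Its call at Day 4 had overlapping intervals, and Day 0 was the high library. EZH2, the methyltransferase for lysine 27, was at 27.5 FPKM (21.8 to 33.4) at Day 0 and 41.5 (35.7 to 47.4) at Day 4. These intervals were apart, but the ratio of 1.51 was not called. The Day 4 interval was also apart from that of the untreated mutant line (30.9 FPKM). It overlapped that of the mutant line with Dox (33.5 FPKM).

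**Figure D3:**
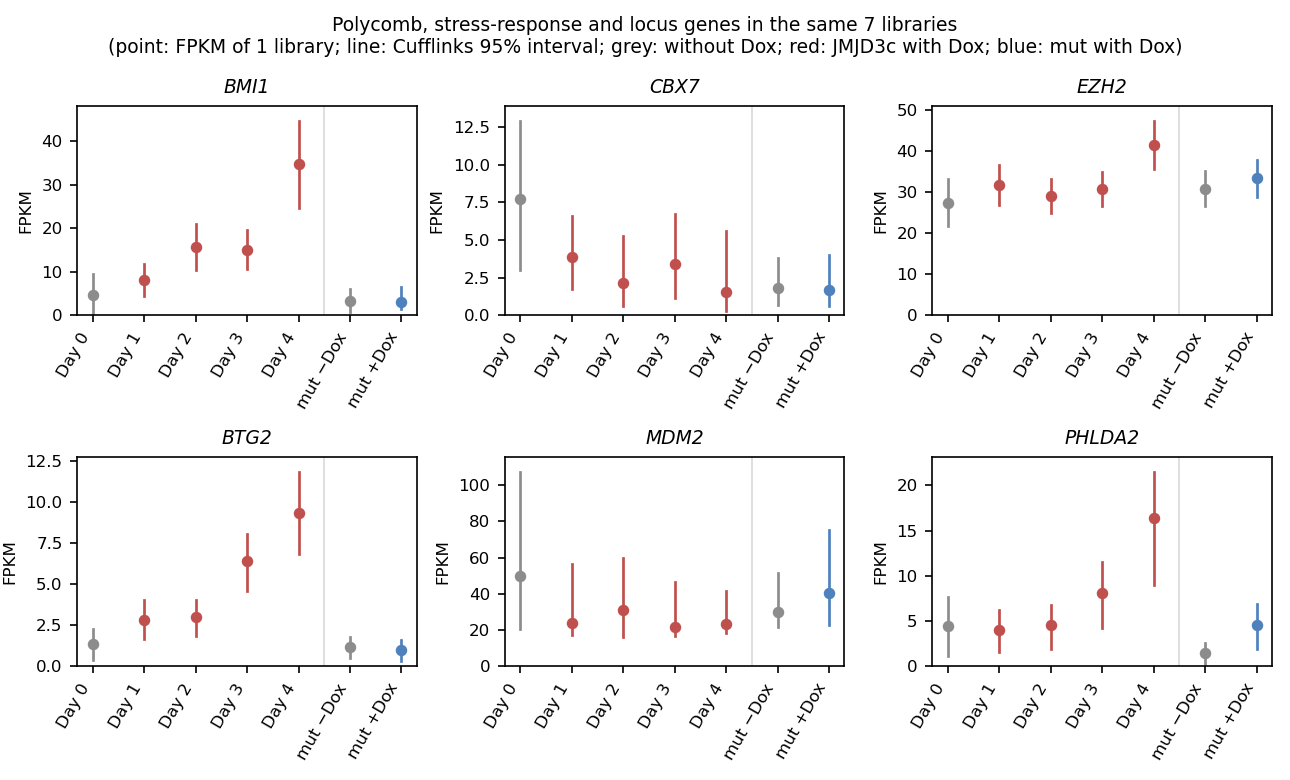
FPKM (y axis, own scale for each gene) of BMI1, CBX7, EZH2, BTG2, MDM2 and PHLDA2 in each library (x axis, 1 library per condition), as points with Cufflinks 95% intervals. BMI1, BTG2 and PHLDA2 have their highest points at Day 4 (34.6, 9.32 and 16.4 FPKM), and CBX7 and MDM2 have theirs at Day 0 (7.69 and 50.0 FPKM).

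CDKN1A was not called against Day 0 on any day. Of 8 other stress-response genes examined, 2 were called upregulated and 1 downregulated at Day 4, against 5.87% and 7.56% of genes. BTG2, an antiproliferative gene, was at 1.34 FPKM (0.414 to 2.28) at Day 0, 2.84, 2.97 and 6.37 at Days 1 to 3, 9.32 (6.81 to 11.8) at Day 4, and 1.20 and 0.994 in the mutant line, with intervals apart at Day 4. GADD45A, a DNA damage response gene, was at 4.68 FPKM at Day 0 and 9.83 at Day 4, and MDM2, a ubiquitin ligase, was at 50.0 and 23.6 FPKM, both with overlapping intervals. GADD45A was already at 9.36 FPKM on Day 1. In the mutant line without and with Dox, GADD45A was at 6.75 and 6.99 FPKM and MDM2 at 30.2 and 40.4 FPKM. Day 0 was thus the lowest library for GADD45A and the highest for MDM2.

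Among the 4 neighbouring genes measured, PHLDA2, an imprinted gene in the same cluster as CDKN1C, was called upregulated in both lines. The shares of all genes so called were 5.87% at Day 4 and 1.25% in the mutant line. PHLDA2 was at 4.48 FPKM (1.18 to 7.65) at Day 0, 3.99, 4.54 and 8.11 at Days 1 to 3 and 16.4 (9.02 to 21.5) at Day 4, with intervals apart, while CDKN1C had a ratio of 0.957 over the same pair. In the mutant line PHLDA2 was at 1.45 (0.285 to 2.57) without Dox and 4.56 (1.96 to 6.86) with Dox, with intervals that overlapped. SLC22A18, an imprinted transporter gene of that cluster, was called lower in the untreated mutant line (2.04 FPKM) than at Day 0 (6.82 FPKM) and so was PHLDA2, both with overlapping intervals. Over all genes, 7.01% were called lower in that comparison. MTAP, the protein-coding neighbour of CDKN2A, lay between 15.5 and 26.7 FPKM in all 7 libraries and was not called. CDKN2B-AS1, KCNQ1OT1 and H19 were not analysed here.

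Between the Dox-treated libraries at Day 4, 1 of the 7 members, CDKN2A, was called higher in JMJD3c-hESCs than in the mutant line, as were 6.56% of 9999 genes, and 0 were called lower, against 3% of genes. CDKN2A was listed at 0 in the mutant line with Dox, so no ratio is given. The ratio of Day 4 to the mutant line with Dox was 1.60 for CDKN1C, 1.13 for CDKN1A and 0.988 for CDKN1B, each with overlapping intervals.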

How the data were processed

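The authors sequenced 7 libraries as single-end reads, and per the submitters' processing notes the tools were CASAVA 1.4, TopHat2 2.0.13 and Cufflinks 2.1.1 with hg19. The deposited values are FPKM per gene with lower and upper 95% bounds, also in FPKM, without read counts. Depth was estimated here from the steps that whole reads leave among low FPKM values of unspliced genes annotated with a single transcript, taking each length minus 200 bases, and estimated reads carry that uncertainty. Counting intervals of ratios were exact binomial (95%) on estimated reads rounded to whole numbers, counted in whole steps of the lowest value for CDKN2B and CDKN2D (tolerance 0.15 of a step) and from transcript length for CDKN2A, and they and the 3-read floors cover counting error only. Ratios used no pseudocount and log2 ratios a pseudocount of 1. Calls used the study's cutoffs (ratio above 2 or below 0.5 with more than 4 FPKM). The named genes were all 7 members, and from gene lists the genes called in any comparison with Day 0 or in the mutant line. A few partners were also named for their role or their intervals after their values were seen (CDK4, CDK6, CCND1, CCNB1, SKP2, EZH2, MTAP). The members and lists were chosen with earlier results of these data known. Promoter windows came from RefSeq (GRCh38.p14) and from GENCODE release 44 starts on GRCh37, the assembly of hg19. Python 3.11.15, numpy 2.4.6, scipy 1.17.1, pandas 2.3.3 and matplotlib 3.10.9 were used. The calls were tested on simulated data only for genes with higher FPKM at Day 0 than CDKN1A or CDKN2A, so that test covers neither of their calls. For the same reason it does not cover the calls of BMI1, CBX7, RB1, BTG2, GADD45A, PHLDA2 and SLC22A18. Alternatives changed the FPKM cutoff, fold, pseudocount, scaling, reference and treated library, and the use of intervals. Results for 1 further gene are not reported here.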

Additional observations from a re-analysis of the deposited data

Results flagged for a closer look

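For CDKN1A and CDKN1C, Day 4 lay below Day 0 in JMJD3c-hESCs while the library with Dox lay above the one without in the mutant line. The log2 ratio with Dox was -0.21 in JMJD3c-hESCs and 0.51 in the mutant line for CDKN1A, a difference of -0.7211. For CDKN1C it was -0.06 and 0.19, a difference of -0.2538. With 1 library per condition these differences were not tested, and the Cufflinks intervals of all 4 pairs overlapped. The CDKN1C value of -0.06 in JMJD3c-hESCs was also the median over the 10247 genes with over 4 FPKM. After rescaling the libraries by the median of ratios it was -0.005, so its sign is not read as a change.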

How the results depend on the processing

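With 1 library per condition, no library could be left out of a condition and no spread between cultures could be measured. At Day 4, the count of members called upregulated was 1 as reported (CDKN2A), 3 with an FPKM cutoff of 1 and 3 with no cutoff (CDKN2A, CDKN2B and CDKN2D), and 0 where the Cufflinks intervals also had to be apart. In the mutant line it was 0 as reported and 1 at a fold of 1.5 (CDKN1A). The count called downregulated was 0 under each alternative run for these comparisons. Of 46 alternative log2 ratios, 2 changed sign and 12 kept it but differed by over 1.5 times. The Day 4 value of CDKN2A was 1.03 with a pseudocount of 4 in place of 1.79, and 2.93 against the untreated mutant line, where it is listed at 0 and the value rests on the pseudocount. That of CDKN2B was 0.33 with a pseudocount of 4 and 2.37 with 0.1, in place of 0.93, and that of CDKN2D 0.22 and 1.02, in place of 0.55. With the untreated mutant line as the reference, the Day 4 value was 0.67 for CDKN1A in place of -0.21, and 0.82 for CDKN1C in place of -0.06. The choice of untreated library thus set the sign for these genes. For the INK4 genes, estimated reads of 0 to 12 per library limited what could be told apart. At 2 times the estimated depth, chosen after seeing the data, the lower bound of the counting interval was 1.86 for CDKN2A in place of 0.975, 1.97 for CDKN2B in place of 1.17 and 0.392 for CDKN2D in place of 0.176. For CDKN2A this change also includes a difference in how the reads were rounded. No paired analysis was possible because no condition has replicates.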

Other observations

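Genes whose pattern over the 7 libraries lay nearest to a member were looked up among 10865 genes with over 4 FPKM in at least 1 library, by the root mean square distance of centred log2(FPKM + 1) values. The libraries are shared by all the genes, and the likeness is a description with no test. Nearest to CDKN2A were KBTBD3 (distance 0.324), ACHE (0.331), which encodes acetylcholinesterase, and BTG2 (0.363). ACHE was at 1.90 FPKM at Day 0, 2.64, 2.37, 6.41 and 7.90 at Days 1 to 4, and 0.988 and 1.34 in the mutant line without and with Dox. Nearest to CDKN1C were RNASEK (0.0814), FAM219A (0.0917) and TMBIM1 (0.0959). RNASEK was at 93.0 FPKM at Day 0, 78.4 at Day 4, and 48.7 and 52.4 in the mutant line, so it too was lower in both mutant-line libraries. Nearest to CDKN1A were OSBP2 (0.122), ZNF615 (0.126) and PPCDC (0.129).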
